A study of Mus musculus with 70 samples.

Results

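The immunoglobulin light chain variable genes were taken as all rows of the count table whose GENCODE M21 symbol begins with Igkv or Iglv and whose gene type is IG_V_gene. They were 103 of the 52636 genes in the table, 100 of the kappa chain and 3 of the lambda chain (Iglv1, Iglv2 and Iglv3). Another 60 light chain V pseudogenes were not members. The study sorted B cells, T cells and monocytes with high or low Ly6C from mice and sequenced total RNA of each population. CON mice were unstressed, whereas SUS and RES mice had gone through chronic social defeat stress (CSDS) for 10 days, in which a mouse meets a larger aggressor each day. SUS mice then avoided a social target and RES mice did not. The methods describe male C57BL/6J mice and sorting from trunk blood, with B220 as the B cell marker, whereas the labels give the source as brain and give no strain, age or sex. No genetic modification is named for any group, and neither the labels nor the methods say whether cells of several mice were pooled.

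The B cell comparison used 17 libraries, 6 CON, 6 SUS and 5 RES, each named here by the number in its label, with 30140183 to 42074062 counts per library. Library 52, labelled as RES B cells, was left out because its marker genes go against its label. Its 12 mature B cell markers summed to 311 CPM (counts scaled to a library total of 1000000) against 8553 to 14258 in the 17 libraries used, and its 8 T cell markers summed to 2281 CPM against 11.7 to 34.7. Library 70, labelled as RES T cells, had the reverse pattern (9522 and 13.9 CPM) and entered no comparison. The labels do not say that libraries of a group came from separate mice, so p-values measure the spread between these libraries. In bulk libraries, fewer cells with a gene and less RNA per cell cannot be told apart.

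Each developing B cell builds its light chain gene by joining 1 V gene segment to 1 J segment next to a constant region. The kappa locus rearranges first and the lambda locus mostly when kappa has failed, so that a mature B cell normally makes a single kappa or a single lambda chain. The share of counts that falls on each V gene therefore depends on how a population of B cells has used its segments, and a clone that has grown out raises the share of a single V gene. It also depends on the RNA per cell and on which reads are counted. The V gene encodes most of the variable domain, and its 3′ end, from the second conserved cysteine codon on, supplies the start of complementarity-determining region 3 (CDR3), the part of the light chain where V meets J.

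The last 60 bases of the annotated V exon are shown for the 10 genes with the highest mean share and for Iglv2, because these ends are what distinguishes the segments at the V to J junction. They are given 5′ to 3′ on the coding strand from GENCODE M21 transcripts (GRCm38), and capitals run from the last in-frame cysteine codon to the end of the exon.
Igkv1-117: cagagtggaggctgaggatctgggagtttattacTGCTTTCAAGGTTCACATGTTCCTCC
Igkv6-15: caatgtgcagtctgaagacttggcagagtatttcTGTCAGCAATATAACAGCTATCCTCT
Iglv3: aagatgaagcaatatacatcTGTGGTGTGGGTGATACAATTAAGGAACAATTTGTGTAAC
Igkv10-96: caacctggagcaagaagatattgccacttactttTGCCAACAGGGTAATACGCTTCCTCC
Igkv6-23: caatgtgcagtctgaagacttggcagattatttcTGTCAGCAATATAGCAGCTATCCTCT
Igkv19-93: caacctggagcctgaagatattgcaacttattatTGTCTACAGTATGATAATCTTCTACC
Iglv1: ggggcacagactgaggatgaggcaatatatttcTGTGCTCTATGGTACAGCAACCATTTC
Igkv1-135: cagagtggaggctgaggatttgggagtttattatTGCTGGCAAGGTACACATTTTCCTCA
Igkv12-46: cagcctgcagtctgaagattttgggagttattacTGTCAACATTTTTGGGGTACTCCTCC
Igkv14-111: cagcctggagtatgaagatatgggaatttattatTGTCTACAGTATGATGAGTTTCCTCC
Iglv2: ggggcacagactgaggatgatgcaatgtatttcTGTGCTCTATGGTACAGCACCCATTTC

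Counting positions from 1 at the first base printed, Iglv1 and Iglv2 differed at 3 positions of this stretch (G21T, A27G and A53C), and Igkv6-15 and Igkv6-23 at 2 (G28T and A48G). Of the 100 kappa genes, 91 had a codon of the form CCN, a proline codon, 7 codons after the last cysteine codon, and these genes held 92.3% of the mean kappa share. The first codon after the cysteine was CAA or CAG in 61 of the 100 kappa genes, which held 61.3% of the mean kappa share. Both shares of counts lay close to the shares of genes.

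In B cells the 103 genes together took 23699 to 59679 counts per library, or 768 to 1536 CPM. In all 17 libraries 88 genes had at least 1 count, and 95 to 101 genes were detected in a given library. Igkv1-35 had no count in any library, which allows a share of up to 0.00503% to 0.0127% by library (3 counts of the light chain V total, counting error only). The use of the genes was broad and uneven, with 35 genes at a mean share of at least 1% of light chain V counts. The 15 most used genes held 50% of the mean share and the 53 most used held 90%. The 51 least used genes together held 10.2%, and 19 genes lay under 0.1% each.

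The 10 most used genes summed to 40.6% of light chain V counts on average. Igkv1-117 led with 5.34% ± 0.475 (SD, n = 17), followed by Igkv6-15 (4.67% ± 0.608), Iglv3 (4.64% ± 1.03), Igkv10-96 (4.20% ± 0.666) and Igkv6-23 (3.97% ± 0.429). Igkv19-93 (3.95% ± 0.608), Iglv1 (3.77% ± 0.474), Igkv1-135 (3.58% ± 0.488), Igkv12-46 (3.38% ± 0.358) and Igkv14-111 (3.11% ± 0.392) came next. Igkv1-117 lay above Igkv6-15 by slightly more than 1 SD, and from Igkv6-15 on neighbours in this order differed by less than 1 SD. Igkv1-110 was 11th with 3.00%, and a step down to 2.02% followed at Igkv6-17. Igkv1-117 had the highest share in 9 libraries, and Igkv6-15 and Iglv3 in 4 each. Dividing counts by exon length left the same 10 genes in the first 10 places.

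**Figure D1:**
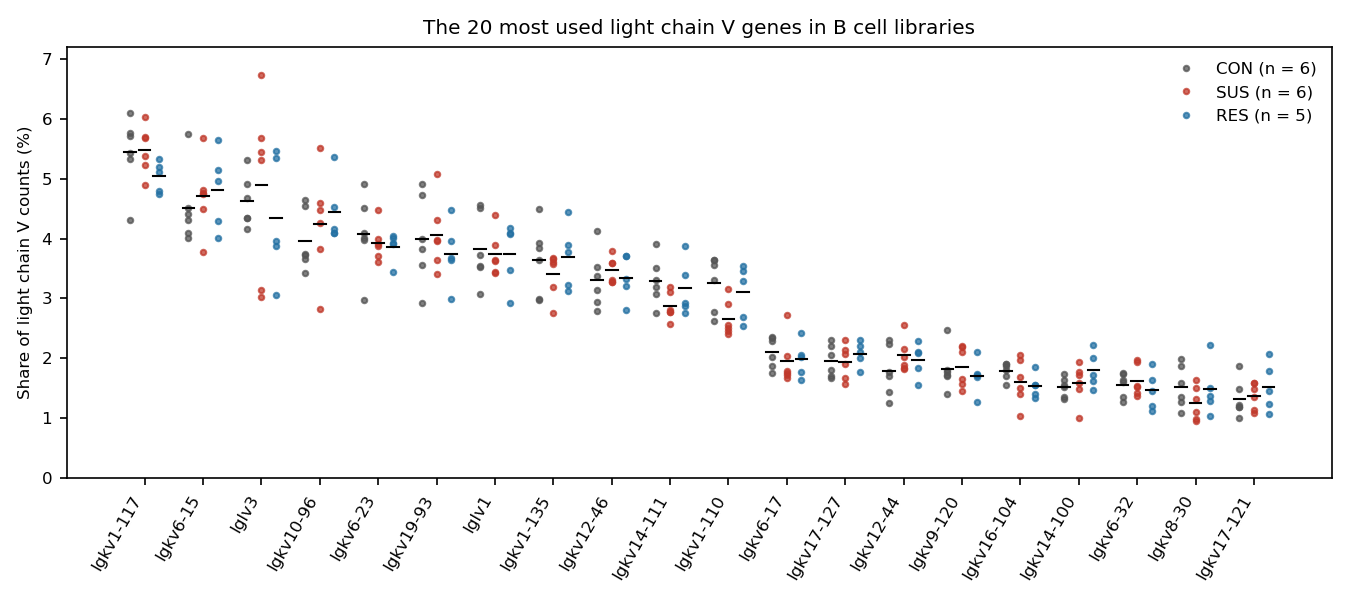
Share of light chain V counts (y axis, percent) of the 20 most used genes (x axis, in order of mean share) in each of 17 B cell libraries. Points are libraries coloured by group and black bars are group means. The ranges of the 3 groups overlap for every gene shown, and shares step down after Igkv1-110.

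Igkv1-117 (ENSMUSG00000094335, chromosome 6, 68121046 to 68121827, + strand) took 4.31% to 6.09% of light chain V counts in CON with a median of 5.57%, 4.89% to 6.03% in SUS with a median of 5.53%, and 4.79%, 5.12%, 5.34%, 5.20% and 4.74% in the 5 RES libraries. The RES values all lay inside the range of CON. Igkv6-15 (ENSMUSG00000094797, chromosome 6, 70406469 to 70406992, − strand) took 4.01% to 5.75% in CON, 3.77% to 5.68% in SUS, and 4.29%, 4.01%, 5.65%, 5.14% and 4.97% in RES, with medians of 4.36% and 4.75% in CON and SUS. The highest CON value of Igkv6-15, 5.75%, stood apart from the other 5 CON libraries, which reached 4.50%.

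Among the 83 genes with a mean of at least 50 counts, the coefficient of variation (CV) of the share over the 17 libraries had a median of 24.6%. It was lower for the more used genes, with medians of 16.0% in the 28 most used, 24.2% in the middle 27 and 46.3% in the 28 least used of these. In each of the 83 genes the variance between libraries was larger than counting error alone, by 7.13 to 89.9 times with a median of 19.8. Among the 10 most used genes Igkv1-117 had the smallest CV, 8.90%, and Iglv3 the largest, 22.2%. A CV over libraries includes the spread between mice, between sorts and between library preparations, which cannot be told apart here.

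The kappa genes lie on both strands over 3149 kb of chromosome 6 (67555497 to 70704177, GRCm38), on the side of lower coordinates from the constant gene Igkc. A V gene on the strand of Igkc joins by deletion of the DNA between V and J, and a V gene on the other strand by inversion. The 38 genes on the + strand, that of Igkc, took 41.7% ± 1.08 (SD, n = 17) of kappa counts and the 62 on the − strand took 58.3% ± 1.08. The 34 genes nearest to Igkc, 22.3 to 825 kb away, took 32.6% ± 1.38 of kappa counts, the 33 in the middle took 23.7% ± 0.998 and the 33 farthest, 1919 to 3170 kb away, took 43.7% ± 1.66. These shares varied little between libraries. In CON, SUS and RES the + strand took 42.2% ± 1.27, 41.1% ± 1.01 and 41.6% ± 0.740 of kappa counts, and the ranges of the groups overlapped.

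**Figure D2:**
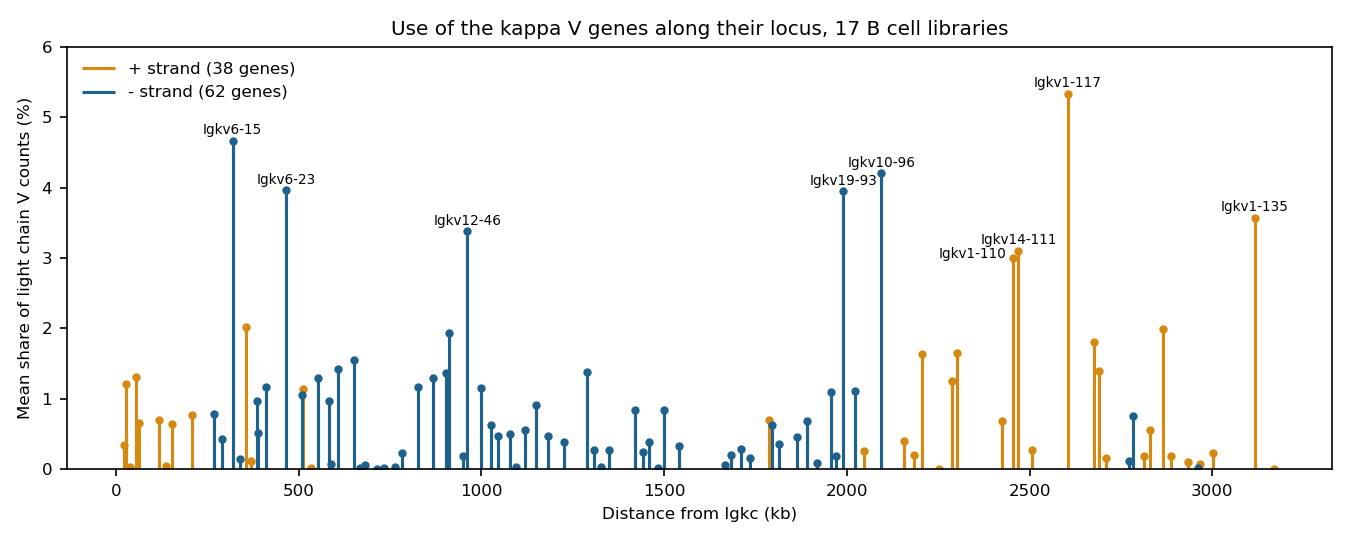
Mean share of light chain V counts over 17 B cell libraries (y axis, percent) of each of the 100 kappa V genes against its distance from Igkc (x axis, kb), coloured by strand. Genes above 2.9% are named. Of the 9 named genes, Igkv12-46 is the only one among the middle 33 genes by distance.

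By family, the 9 Igkv6 genes took 15.2% ± 1.21 of light chain V counts, the 10 Igkv1 genes 13.0% ± 0.726 and the 26 Igkv4 genes, the largest family, 11.0% ± 0.598. Per gene, Igkv4 members averaged 0.424% and Igkv6 members 1.68%, while Igkv19, a family with the single gene Igkv19-93, took 3.95%. Igkv7, Igkv18 and Igkv20, each of 1 gene, took 0.00967%, 0.0208% and 0.00759%. No family mean differed between groups by more than 1 percentage point. For the Igkv6 family the means were 15.2% ± 0.788 in CON, 15.3% ± 1.86 in SUS and 15.0% ± 0.808 in RES. The Igkv8 family had 7.53% ± 0.570, 6.73% ± 0.610 and 7.35% ± 0.391.

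The 3 lambda V genes on chromosome 16 (19085017 to 19260859) took 7.63% to 11.6% of light chain V counts. Iglv3 (ENSMUSG00000076939) and Iglv1 (ENSMUSG00000076934) made up most of it, and Iglv2 (ENSMUSG00000076940), 96.9% identical to Iglv1 in coding sequence and 60.1% to Iglv3, took 1.05% ± 0.238 (SD, n = 17). Their longest identical stretch, of Iglv1 and Iglv2, was 104 bases. Iglv3 took 4.17% to 5.31% in CON with a median of 4.52%, 3.03% to 6.74% in SUS with a median of 5.37%, and 5.35%, 5.46%, 3.06%, 3.95% and 3.88% in RES. SUS and RES libraries therefore lay on both sides of the CON range. The share of all lambda V genes averaged 9.36% ± 0.781 in CON, 9.78% ± 1.64 in SUS and 9.20% ± 1.19 in RES, and the differences were 0.42 ± 0.741 (SE) percentage points for SUS minus CON, −0.16 ± 0.619 for RES minus CON and 0.58 ± 0.854 for SUS minus RES.

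Constant region counts, divided by exon length, gave a lambda share of 19.7% ± 1.48 (SD, n = 17), more than the 9.15% ± 1.18 of the V genes on the same per-length scale. SUS minus CON was −1.09 ± 1.00 (SE) percentage points by constant genes and 0.41 ± 0.726 by V genes, of opposite sign. SUS minus RES also differed in sign (−0.26 ± 0.856 and 0.57 ± 0.834), and RES minus CON did not (−0.83 ± 0.632 and −0.15 ± 0.604). The ranges of the groups overlapped in each case. Iglc2 (9.39%) and Iglc1 (6.23%) exceeded Iglc3 (4.10%), and Igkc held 80.3%. Iglc2 and Iglc3 are closely similar copies, so that reads of one can be counted for the other. The V to constant ratio per length was 0.650 ± 0.0175.

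The effective number of V genes, the exponential of the Shannon entropy of the shares, equals the number of genes when all are used alike. It was 53.6 to 56.9 in CON with a median of 55.2, 53.8 to 57.0 in SUS with a median of 55.3, and 56.3, 55.2, 57.5, 55.7 and 57.2 in the 5 RES libraries. The groups overlapped, and the means were 55.1 ± 1.13, 55.4 ± 1.42 and 56.4 ± 0.984 (SD). The difference was 0.32 ± 0.741 (SE) for SUS minus CON, 1.26 ± 0.636 for RES minus CON and −0.93 ± 0.729 for SUS minus RES.

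The Simpson effective number, which weighs the leading genes more, averaged 40.5 ± 1.78 in CON, 40.4 ± 1.51 in SUS and 41.4 ± 0.900 in RES. The 10 most used genes of each library summed to 41.1% ± 1.73, 40.9% ± 1.34 and 40.6% ± 0.626 of its light chain V counts. The single largest share in any library was 6.74%, that of Iglv3 in SUS library 36. The share of the leading gene averaged 5.54% ± 0.414 in CON, 5.84% ± 0.506 in SUS and 5.32% ± 0.259 in RES. Its differences were 0.30 ± 0.267 (SE) percentage points for SUS minus CON, −0.22 ± 0.205 for RES minus CON and 0.52 ± 0.237 for SUS minus RES. The ranges overlapped in each comparison, although 5 SUS libraries lay above every RES library.

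**Figure D3:**
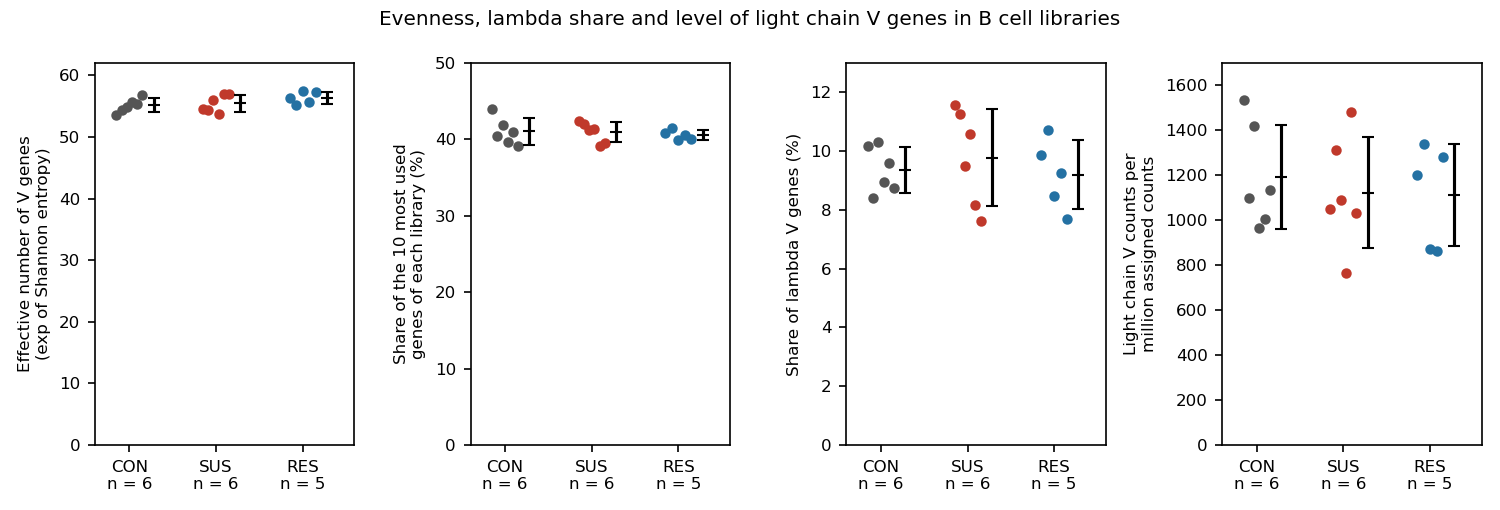
Effective number of V genes, share of the 10 most used genes, share of lambda V genes and light chain V level in CPM (y axes, from 0) in CON (n = 6), SUS (n = 6) and RES (n = 5) B cell libraries. Points are libraries, and the bars beside them are mean ± SD. The groups overlap in all 4 panels.

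Pairs of libraries were compared by the part of the counts that would have to move to other genes to make their shares equal. It was 9.07% to 14.0% with a median of 11.4% for the 40 pairs within a group and 8.73% to 15.2% with a median of 11.4% for the 96 pairs between groups. Between group means the figure was 4.59% for SUS and CON, 4.95% for RES and CON and 4.82% for SUS and RES. The ranges for pairs within and between groups largely coincided.

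The level of the V genes was compared with edgeR's quasi-likelihood test on all genes tested, and a gene was called when its adjusted p was under 0.05 and its log2 fold change exceeded 1 in either direction. Of the 103 genes, 98 passed the filter on low counts and entered the test of 17620 genes. None was called in SUS against CON, RES against CON or SUS against RES, beside 0.00568%, 0% and 0% of all genes tested. By DESeq2 the count was also 0. At an unadjusted p under 0.05 there were 2 genes in SUS against CON, both lower, 4 in RES against CON, all lower, and 1 in SUS against RES, also lower, of the 98, beside 3.42%, 3.18% and 1.36% of all genes tested. DESeq2 gave 7, 7 and 2 at that limit.

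The median log2 fold change of level over the 98 genes was −0.12 in SUS against CON, −0.19 in RES against CON and 0.08 in SUS against RES, and over all genes tested it was −0.0015, 0.0010 and −0.00061. In both comparisons with CON 69 of the 98 genes had a lower level. These medians moved by over 1.5 times when single libraries were left out. In SUS against CON the median was −0.04 without library 38 or 45, −0.20 without 48 and −0.19 without 51. In RES against CON it was −0.11 without library 46. In SUS against RES it was −0.01 without library 48 and −0.0094 without 51, the opposite sign, and 0.05, 0.02 and 0.12 without 43, 46 and 45. Total light chain V counts were 964 to 1536 CPM in CON with a median of 1118, 768 to 1483 in SUS with a median of 1070, and 1201, 1338, 874, 862 and 1283 in RES. The groups overlapped, and the differences of the means were −70.5 ± 138 (SE) CPM for SUS minus CON and −81.3 ± 139 for RES minus CON. With each library left out the first lay between −143 (without 48) and 0.48 (without 45) and the second between −138 (without 40) and −12.7 (without 35), and they moved by over 1.5 times also without 35, 39, 41, 44 or 47 for SUS minus CON and without 41, 43, 44, 46 or 49 for RES minus CON. TMM factors gave −95.4 for SUS minus CON and −136 for RES minus CON, and a total without mitochondrial genes, Gm23935 and Gm26917 gave −136 and −178. The 6 red cell genes summed to 1416 to 5285 CPM in CON, 2889 to 12672 in SUS and 2795 to 11233 in RES. Their median log2 fold change was 0.95 in SUS against CON and 0.76 in RES against CON. For the 4 platelet, 7 T cell and 6 monocyte genes tested the medians were 0.97, 0.76 and 0.61 in SUS against CON. In RES against CON they were 0.21, 0.14 and 0.51. The 1 neutrophil gene tested had 5.67 in SUS against CON and 2.98 in RES against CON. The 5 neutrophil genes summed to at most 0.0539 CPM in CON, 2.29 in SUS and 0.860 in RES. None of these genes was called, and their part in the light chain V values was not tested.

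In the test of usage, library size was set to the light chain V total, so that a fold change is a change of share, and p-values were adjusted over all 17620 genes. None of the 98 genes was called in any comparison by edgeR or DESeq2, beside 0%, 0% and 0% of all genes tested. At an unadjusted p under 0.05 edgeR gave 2, 2 and 1 genes, beside 3.63%, 4.13% and 1.11% of all genes, and DESeq2 gave 4, 3 and 2. The medians of the 98 genes were 0.01, −0.0046 and 0.02. On this scale the median of all genes was shifted to 0.12, 0.16 and −0.03. For the 10 most used genes the log2 fold change of usage stayed between −0.20 and 0.10 in SUS against CON and between −0.11 and 0.17 in RES against CON, and their 95% intervals reached from −0.46 to 0.45 and from −0.48 to 0.48.

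No member had groups without overlap on either scale in any comparison, of 98 tested. Of all 17620 genes tested, libraries of the groups did not overlap in 0.17%, 0.358% and 0.238% by level and in 0.306%, 0.516% and 0.182% by usage, in the order SUS against CON, RES against CON and SUS against RES.

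**Figure D4:**
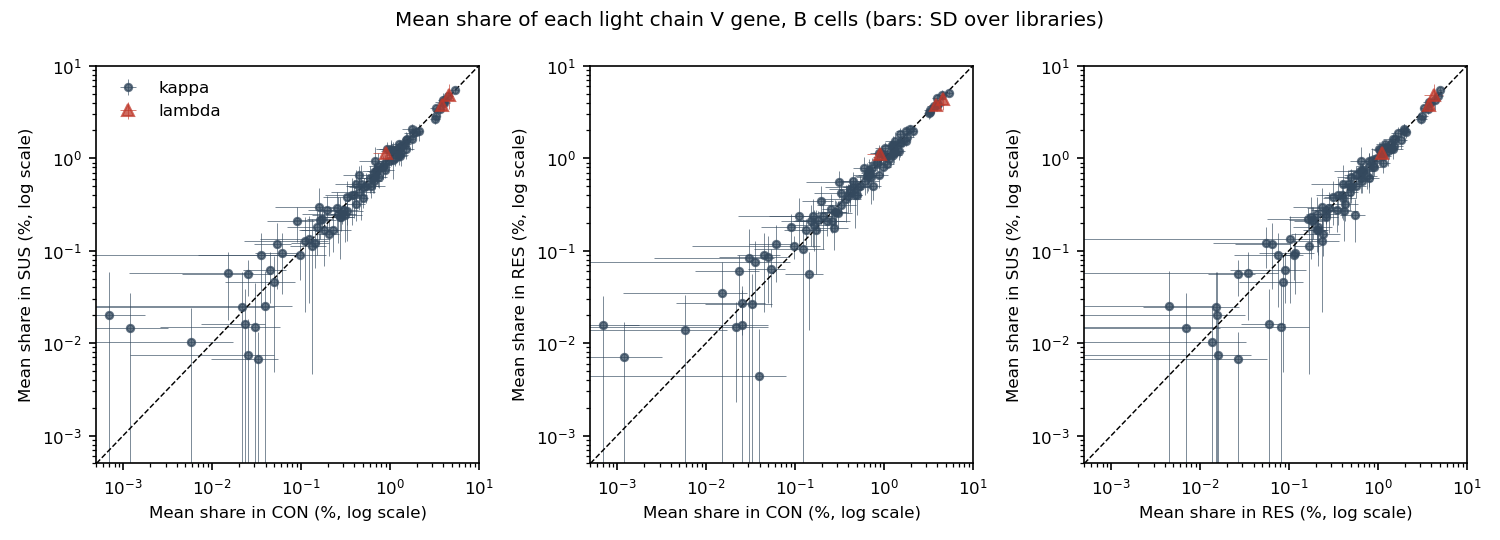
Mean share of each light chain V gene (percent, log scales) in SUS against CON, RES against CON and SUS against RES (y against x axis), B cells. Bars are SD over libraries, the dashed line marks equal shares and triangles are lambda genes. Genes above 1% lie close to the line and the spread grows toward genes under 0.1%.

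Among genes with a mean of at least 50 counts, the largest usage changes were those of Igkv4-81, Igkv1-122 and Igkv4-86. Igkv4-81 was higher in SUS against CON, Igkv1-122 was higher in RES against CON and Igkv4-86 was lower in SUS against RES. Their mean shares were 0.160%, 0.153% and 0.358%. Igkv1-122 had a log2 fold change of 1.08 ± 0.76 (SE) in RES against CON, with an unadjusted p above 0.05. Igkv4-86 (ENSMUSG00000076536) took 0.140% to 0.655% in CON with a median of 0.276%, 0.0549% to 0.372% in SUS with a median of 0.271%, and 0.439%, 0.325%, 0.782%, 0.609% and 0.587% in RES. SUS against RES its usage log2 fold change was −1.15 ± 0.43 (SE; edgeR, adjusted p = 1.00). Igkv4-81 (ENSMUSG00000076539) took 0.0234% to 0.158% in CON with a median of 0.0806%, 0.0857% to 0.312% in SUS with a median of 0.226%, and 0.115%, 0.280%, 0.224%, 0.163% and 0.131% in RES. Its usage log2 fold change was 1.21 ± 0.50 in SUS against CON (edgeR, adjusted p = 1.00) and 1.01 ± 0.52 in RES against CON. Igkv4-50 (ENSMUSG00000076562) took 0.522% to 0.977% in CON with a median of 0.747%, and 0.388%, 0.704%, 0.325%, 0.531% and 0.556% in RES. Its log2 fold change of level in RES against CON was −0.75 ± 0.26 (edgeR, adjusted p = 1.00). None passed the threshold, and in each case the groups overlapped.

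The other genes at an unadjusted p under 0.05 were Igkv8-21 and Igkv1-110 by level in SUS against CON (log2 fold changes −0.44 and −0.43), Igkv1-117, Igkv8-18 and Igkv4-59 by level in RES against CON (−0.29, −1.54 and −0.46), Igkv4-91 by usage in SUS against CON (0.43) and Igkv8-18 by usage in RES against CON (−1.36). Igkv8-21, Igkv1-110, Igkv4-59, Igkv8-18 and Igkv4-91 were named after their values were seen.

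Among genes with a mean share of at least 0.2%, the highest library most exceeded the median in Igkv1-133 (2.96 times, SUS library 48), Igkv4-69 (2.62 times, CON library 38), Igkv4-86 (2.44 times, RES library 43), Igkv4-58 (2.40 times, SUS library 48) and Igkv9-124 (2.34 times, SUS library 45, at 1.65%). These high values fell in all 3 groups. The lowest mean shares above 0 were those of Igkv2-137 (0.706 counts on average), Igkv20-101-2 (3.41) and Igkv7-33 (4.18).

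Over the 17 libraries the genes whose log2 share followed that of Igkv1-117 most closely were Igkv3-1 (Pearson r = 0.61), Iglv1 (0.54) and Igkv6-25 (0.52), given as a description because shares of 1 library sum to a fixed total. Of the 103 genes 10 share a stretch of at least 150 bases, the length of 1 read, with another V gene or pseudogene, and their split is uncertain. These are Igkv6-20 and Igkv6-29, Igkv5-43 and Igkv5-45, Igkv13-84 and Igkv13-85, Igkv3-5 and Igkv3-10, and Igkv6-17 and Igkv6-25, with 7.93% of light chain V counts together and none among the 10 most used. Igkv1-117 and Igkv1-110 share up to 142 bases.

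Genes that act with the V genes were compared on the level scale. Of the 12 light chain constant and joining genes 11 were tested and none was called. Igkc had 1331 to 2799 CPM, with log2 fold changes of −0.14 in SUS against CON and −0.18 in RES against CON. Iglc1 (−0.27) and Iglc2 (−0.31) had an unadjusted p under 0.05 in SUS against CON, as Iglc3 (−0.33) had in RES against CON, and Iglj2 was at 0 in all libraries. Of the 19 genes for light chain recombination, the surrogate light chain and transcription, 15 were tested and none was called. Rag1, part of the recombinase that cuts at V and J segments, had 0 to 2.57 CPM, and Vpreb1 and Igll1, the surrogate light chain of precursor B cells, reached at most 0.834 and 1.38 CPM. Pax5, a transcription factor that keeps B cell identity, had 339 to 1015 CPM. The 10 plasma cell genes summed to 230 to 372 CPM, and 9 were tested with none called. Jchain, which links antibody units, had 0.0238 to 6.60 CPM and Tnfrsf17, a receptor of plasma cells, at most 0.767 CPM, whereas Txndc5 had 96.6 to 170 CPM and Mzb1 59.2 to 131 CPM. Sdc1, the plasma cell surface proteoglycan, had an unadjusted p under 0.05 in both comparisons with CON, with 10.4 to 19.8 CPM in CON, 7.37 to 11.9 in SUS and 7.74 to 12.4 in RES and log2 fold changes of −0.80 ± 0.23 in SUS against CON (SE; edgeR, adjusted p = 0.755) and −0.67 ± 0.24 in RES against CON (adjusted p = 1.00).

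Outside B cells the V genes were scarce. There were 16 libraries of Ly6C low monocytes, 17 of T cells without library 70 and 18 of Ly6C high monocytes. The median over libraries was 9.96 CPM in Ly6C low monocytes (0.741 to 238), 0.967 CPM in T cells without library 70 (0.0779 to 3.85) and 0.240 CPM in Ly6C high monocytes (0.0228 to 4.58), against 768 to 1536 CPM in B cells. The effective number was at most 11.2 in Ly6C low monocytes, 7.98 in T cells without library 70 and 5 in Ly6C high monocytes. The median light chain V counts per library were 351.5, 34 and 8. An effective number cannot exceed the number of counts, so low counts limit these values, most of all in Ly6C high monocytes. There the value of 5 came from libraries with 5 counts on 5 genes. In Ly6C low monocytes the value of 11.2 came from RES library 31, with 2347 counts. The first gene alone took a median of 43.6%, 60.3% and 75.5% of the light chain V counts, which in T cells and Ly6C high monocytes were at most 156 and 188. No member passed the filter on low counts in T cells or Ly6C high monocytes.

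**Figure D5:**
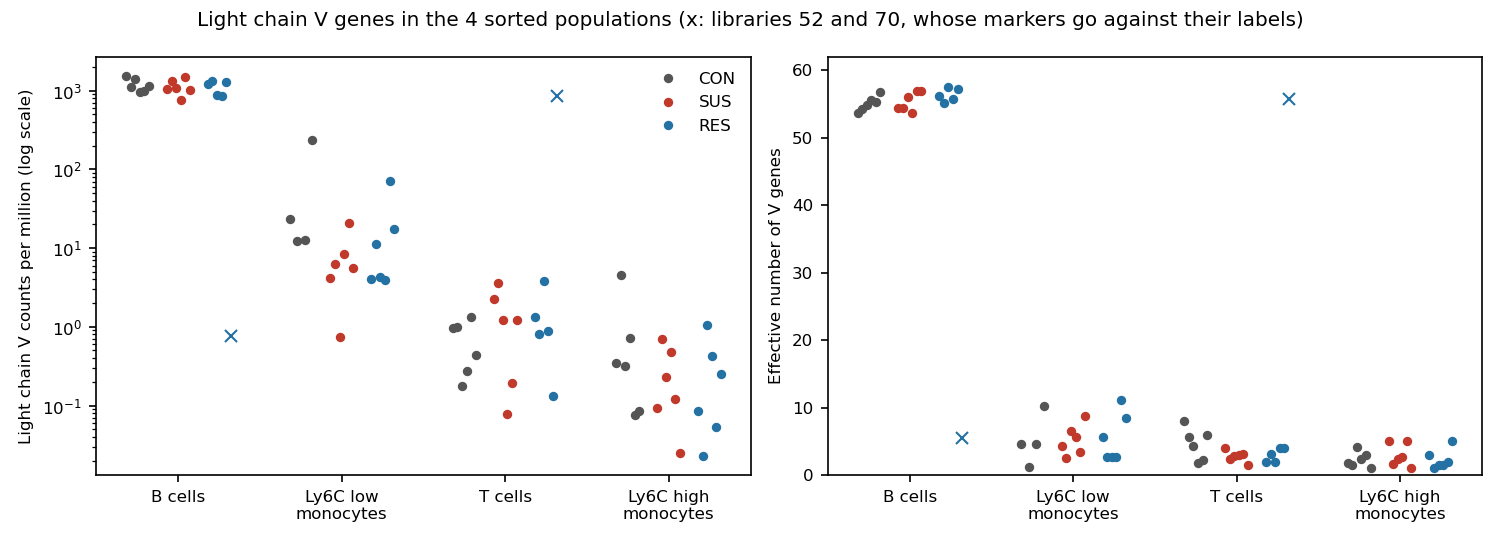
Light chain V level in CPM (left, log scale) and effective number of V genes (right) in every library of the 4 sorted populations, coloured by group. Crosses are libraries 52 and 70. B cell libraries stand apart at 53.6 to 57.5 effective genes, and library 70 lies with them at 55.7.

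Ly6C low monocytes had 4 CON, 6 SUS and 6 RES libraries, with 389 to 6437, 17 to 637 and 125 to 2347 light chain V counts each. In these libraries 6 members were tested (Iglv1, Iglv3, Igkv1-110, Igkv1-117, Igkv6-15 and Igkv14-111). None was called by edgeR or DESeq2, beside 0.0871%, 0.0154% and 0% of all genes tested in SUS against CON, RES against CON and SUS against RES. At an unadjusted p under 0.05 there were 2, 0 and 2 members by both tools, beside 9.51%, 9.67% and 3.79% of all genes. They were Iglv1 and Igkv1-117 in both comparisons, with log2 fold changes of −6.49 ± 2.14 (SE) and 4.29 ± 1.77 in SUS against CON and of −4.55 ± 1.97 and 3.19 ± 1.40 in SUS against RES. These values rest on few counts that single genes can lead in a library. Igkv1-117 took 188 of 243 light chain V counts in SUS library 22, and Iglv1 took 181 of 389 in CON library 29. CON library 32 held 6437 light chain V counts, led by Igkv12-46 with 1369. Its Igkc level was 409 CPM, against 4.81 to 39.6 CPM in the other CON libraries. Cd79a, a B cell receptor gene, differed less, at 19.5 CPM against 9.13 to 17.3 CPM.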

How the data were processed

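Total RNA of sorted leukocytes was made into libraries with the SMARTer Stranded Total RNA-Seq Pico kit. Per the labels and the methods, the authors aligned reads with HISAT2 to mm10 and counted reads per gene with HTSeq, and deposited 1 table of raw counts for 70 libraries. The treatment of strand, of reads with several matches and of duplicates in counting is not given in the sources used here. Rearranged V genes carry junctions and mutations that a genome lacks, so reads over the V to J junction can be lost. Gene names, types, coordinates, exon lengths and transcripts came from GENCODE M21 (GRCm38), which matched 52403 of 52636 identifiers. The members, gene lists and tests were chosen with earlier results of these data known.

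Shares are counts of a gene over all light chain V counts of its library. Level and usage were tested with edgeR 4.0.16 in R 4.3.3 (filterByExpr, robust quasi-likelihood fit on 17 B cell libraries, Benjamini-Hochberg adjustment over all genes tested), with TMM factors for level and the light chain V total as library size for usage. The fit was tested on simulated data. DESeq2 1.42.0, other filters, normalizations and left-out libraries were alternatives. Evenness and shares summed over genes were compared by means with standard errors (unequal variances) and ranges, without a test. Depth per sample was 30140183 to 42074062 counts in the B cell libraries used. Errors given as SD cover the spread between libraries. Genes were named where they had the 10 highest mean shares, were lambda genes, had the 3 largest usage changes in each direction per comparison (mean of at least 50 counts), had the 5 largest ratios of 1 library to the median (mean share of at least 0.2%) or the 3 lowest shares above 0. Python 3.11.15 and biopython 1.88 were used for shares and alignments. Promoter motifs and recombination signal sequences were not analysed here.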

Additional observations from a re-analysis of the deposited data

Results flagged for a closer look

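Values were looked at again where the highest or lowest library of a group stood apart by Dixon's criterion, which by chance marks about 1 in 20 groups; 9 of 122 groups of values were marked. In B cells these were the share of Igkv6-15 in CON (highest 5.75%, next 4.50%), of Igkv6-23 in RES (lowest 3.45%, next 3.91%) and of Igkv4-86 in CON (highest 0.655%, next 0.287%). The others in B cells were genes with a few counts, Igkv2-137 in CON (highest 0.0095%), Igkv20-101-2 in SUS (highest 0.0550%) and Igkv7-33 in CON (highest 0.0281%).

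In other populations the light chain V level of 1 library stood apart in Ly6C high monocytes of CON mice (4.58 CPM, next 0.720), in Ly6C low monocytes of RES mice (70.5 CPM, next 17.7) and in Ly6C low monocytes of CON mice (238 CPM, next 23.5). Library 70, labelled as RES T cells and used in no comparison, had 859 light chain V CPM, against at most 1.34 in CON T cells. Its 31471 light chain V counts were spread over 96 genes led by Igkv6-15 (5.94%).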

How the results depend on the processing

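With library 52 kept under its label, the RES minus CON difference in effective number became −7.23 and SUS minus RES 7.55, the Simpson differences became −5.48 and 5.34, and the differences in the share of the 10 most used genes became 8.91 and −9.01 percentage points. This library holds 32 light chain V counts. Usage calls then numbered 2 in RES against CON and 1 in SUS against RES, and Igkv4-81 was called in RES against CON (log2 fold change 4.71, edgeR adjusted p = 0.0152). In this usage fit the library size of library 52 was its 32 light chain V counts. The share of all genes called with library 52 kept was not computed, so these calls are not read as a result about the V genes. Without the low-count filter in Ly6C low monocytes, 3 genes (Igkv5-45, Igkv9-120 and Igkv10-94) were called lower in SUS against CON. In RES against CON 2 (Igkv9-120 and Igkv10-94) were called lower. The CON group held 4 libraries, and in CON library 24 Igkv9-120 took 425 of 432 light chain V counts. The cause was not tested, and the share of all genes called at this setting was not computed. The count of called genes in B cells was 0 under every other alternative, and from 0 to 0 with each library left out. The other 406 recomputed counts and differences kept their count or moved by less than 1 SD between libraries. That limit is wide for a difference of means, so staying within it does not show that a difference is stable. Within it, SUS minus CON in light chain V level moved from −70.5 to 0.48 CPM when 1 library was left out. Of the 15 differences in evenness, lambda share and level, 6 changed sign when 1 library was left out and 4 under another setting, so their directions are not stable, and the median log2 fold change of level in SUS against RES changed sign without library 48 or 51. RES minus CON in effective number was 0.96 to 1.61 with each library left out and 0.0968 to 1.29 under the other settings, lowest with V gene families as the unit. No paired analysis was possible because the groups share no replicate numbers. Promoter octamers and recombination signals were not run. The precision is limited by 5 or 6 libraries a group. The median standard error of usage was 0.24 to 0.26 on the log2 scale. A change in 1 gene can exceed this error and still not be called. Over the 83 genes with a mean of at least 50 counts, the 95% intervals of usage reached from −1.41 to 2.20 in SUS against CON. They reached from −1.82 to 2.58 in RES against CON and from −2.39 to 1.94 in SUS against RES. Changes in single genes larger than the median standard error were therefore not excluded.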

Other observations

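Light chain V pseudogenes, 60 rows that are not members, had 121 to 558 counts per B cell library, or 0.287% to 1.18% of the members' counts. Library 52 had its 32 light chain V counts on 11 genes, with 16 on Igkv10-95.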
